A study of Homo sapiens with 12 samples.

Results

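The genes described here are 32 that mark the surface and identity of endothelial cells, out of 60623 genes in the deposited expression table. They were taken by symbol from a list of endothelial adhesion molecules, receptors, coat proteins and caveola proteins, and all 32 were found. Messenger RNA had been sequenced from 4 groups of 3 libraries of HMEC-1, a human line made from the small vessels of the skin and immortalised for culture, and all cells were harvested at 48 h. The control group (CT) had fresh complete medium, and the OSM group had recombinant oncostatin M, which belongs to the cytokines related to interleukin-6. The PF9363 group had oncostatin M with 30 µg/mL PF9363, labelled an inhibitor of the acetyltransferases KAT6A and KAT6B, and the CBP300 group had oncostatin M with 10 µg/mL CBP300, labelled an inhibitor of the acetyltransferase EP300. Oncostatin M is given as 10 ng/mL in the protocol and as 10 µg/mL in the sample characteristics, and the values do not settle which is right. All cells were of 1 line in culture, no vehicle is named, and neither inhibitor was given on its own. The labels do not say that the libraries of a group came from separate cultures, so the p-values below rest on a spread between libraries that may be technical.

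Endothelial cells are held together by adherens and tight junctions built on VE-cadherin and claudin-5, and their luminal face carries sialomucins, C-type lectins and scavenger receptors that set contact with blood cells. Receptors for angiopoietins, adrenomedullin, sphingosine-1-phosphate and BMP9 keep the layer quiet and tight, and caveolae with their diaphragms carry material across it. Many of these genes are read by ETS factors such as ERG and FLI1, and cytokines or culture can lower them when the cells lose their identity.

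Levels are in TPM, a unit that gives each transcript's share of a library after division by its length, and changes are differences of log2(TPM + 1) from limma, given with their standard error and a Benjamini-Hochberg adjusted p over the 16848 genes that reached 1 TPM in 3 libraries or more. A gene was called higher or lower at an adjusted p under 0.05. Of the 32 members 29 passed this filter, LYVE1 only through its level in the PF9363 group, and APLNR, NOSTRIN and AQP1 did not. Where a value is a difference it is on the log2 scale, and all other values are levels. The OSM libraries enter both inhibitor comparisons, so the changes set side by side for PF9363 and CBP300 share them.

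Under oncostatin M members were called both ways, the share higher (44.8%) being near that of all genes, and CBP300 lowered most members. With oncostatin M 13 members were higher and 10 lower than in CT, where 42.1% of all tested genes were higher and 15.2% lower. With CBP300 on top of oncostatin M, 23 of the 29 tested members were lower than with oncostatin M alone, against 13.3% of all genes, and 1, PODXL, was higher, against 13.8%. Of the 23, 18 had fallen at least 2-fold, against 3.66% of all genes. With PF9363 on top, 8 members were higher and 5 lower, against 11.3% and 35.6% of all genes. Set directly against each other, the PF9363 libraries were higher than the CBP300 libraries for 22 members and lower for 2, CALCRL and PODXL, against 14.5% and 45.1% of all genes. LYVE1 is in each of these counts, although it passed the filter only through its high level in PF9363. Without it, 28 members were tested, of which 12 were higher and 10 lower with oncostatin M, 7 and 5 with PF9363, 1 and 22 with CBP300, and 21 and 2 in PF9363 against CBP300. In bulk RNA, fewer cells that make a transcript and less of it per cell cannot be told apart.

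The middle of all genes moved too, and the members are read against it. The members called higher and lower were 44.8% and 34.5% of the 29 with oncostatin M, with a median change of 0.25 for the members and 0.31 for all genes. With PF9363 they were 27.6% and 17.2%, with medians of -0.03 and -0.31. With CBP300 they were 3.45% and 79.3%, with medians of -1.45 and 0.11. In PF9363 against CBP300 they were 75.9% and 6.9%, with medians of 1.36 and -0.41. Relative to those shifts, 28 of 29 members were below the median of all genes with CBP300, and 27 of 29 above it in PF9363 against CBP300. No test of the list was made, since its members were chosen with results known.

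**Figure D1:**
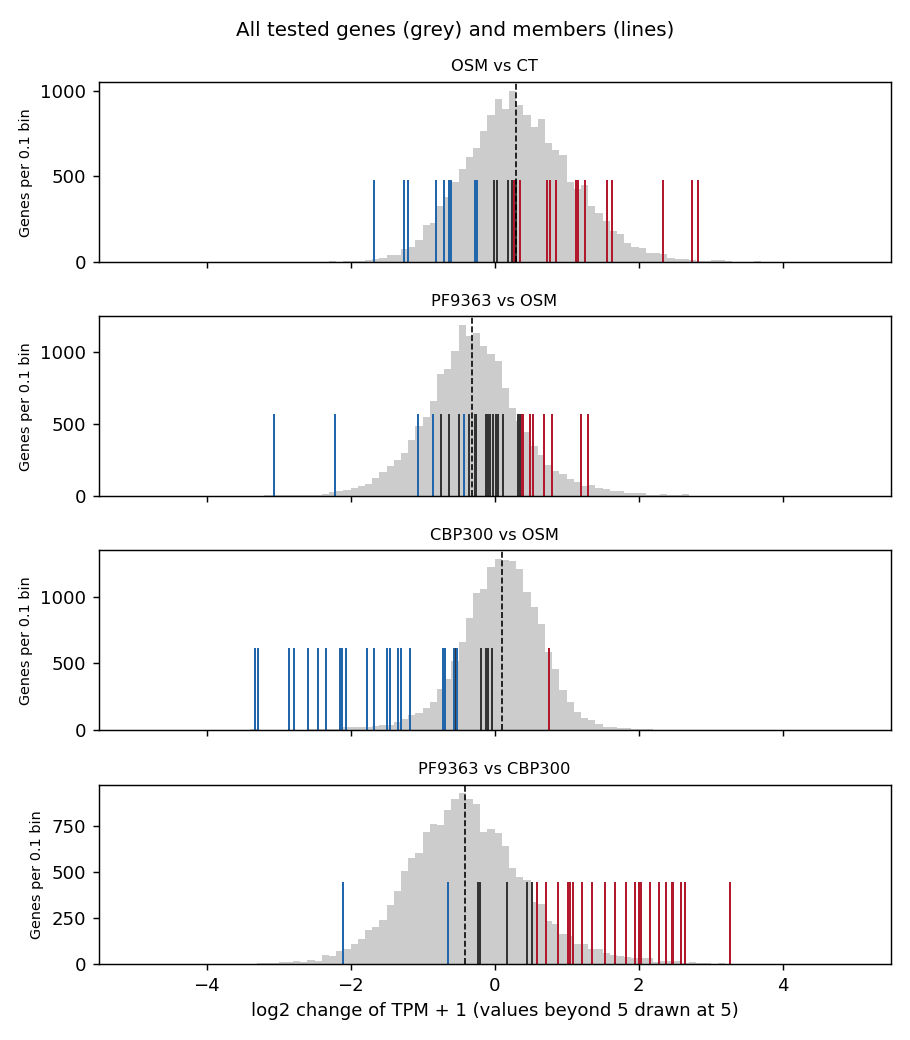
Distribution of the log2 change of TPM + 1 over all 16848 tested genes (grey, genes per bin of 0.1) in 4 comparisons, with the 29 tested members as lines (red called higher, blue called lower, black not called) and the median of all genes dashed. With CBP300 nearly all member lines lie left of the dashed median (28 of 29), and in PF9363 against CBP300 they lie right of it (27 of 29).

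In units of 1000000 the libraries held 13.42 to 73.3 reads, recovered from the steps between low TPM values, CBP300 replicate 2 being the deepest. The libraries CT replicate 1 and PF9363 replicate 3 differed more than the rest from their own groups, with mean absolute log2 differences of 0.481 to 0.58 and 0.386 to 0.46 from the other libraries of the group. CT replicate 1 was the lowest of its group for 23 of the 29 tested members and PF9363 replicate 3 for 22. Without both libraries the counts were 13 higher and 10 lower for OSM against CT, 10 and 9 for PF9363 against OSM, 1 and 25 for CBP300 against OSM, and 25 and 2 for PF9363 against CBP300. Over all 16848 genes the counts were then, in the same order, 6992 and 2840, 2913 and 7207, 6090 and 3686, and 2934 and 8496. All 14 endothelial markers reached 1 TPM in 3 libraries or more, and 6 of those markers are not members. They summed to 754.7 to 800.1 TPM in CBP300, 1278 to 1314 in PF9363, 1411 to 1466 in OSM and 1523 to 1628 in CT. EGFL7 weighed most in these sums, with means of 798.5 (CT), 482.9 (OSM), 502.1 (PF9363) and 299.0 TPM (CBP300). From CT to OSM the means of EGFL7, ROBO4, SOX18, ESAM and CLDN5 fell, and those of the other endothelial markers rose. The leukocyte marker PTPRC was under 0.1 TPM in every library and the epithelial factor GRHL2 was listed at 0 in all 12.

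To show what DNA stands before the genes with the largest falls and the sharpest contrasts, the bases upstream of their transcription starts are given from RefSeq on GRCh38.p14, 5′ to 3′ in the gene's direction and trimmed to the longest stretch outside annotated exons. PLVAP, STAB1, EMCN and MMRN1 had the largest falls with CBP300, and ECSCR rose with one inhibitor and fell with the other. The EMCN stretch lies before the RefSeq start but within the longer span that GENCODE 29 gives the gene. Capitals mark the ETS core, AGGAAG or CGGAAG, read on either strand.
PLVAP, chr19:17377351-17377592, minus strand: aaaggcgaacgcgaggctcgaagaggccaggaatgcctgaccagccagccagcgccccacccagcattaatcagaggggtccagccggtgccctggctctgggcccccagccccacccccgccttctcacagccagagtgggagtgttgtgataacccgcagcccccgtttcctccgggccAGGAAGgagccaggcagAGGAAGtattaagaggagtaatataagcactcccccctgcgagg
STAB1, chr3:52495088-52495337, plus strand: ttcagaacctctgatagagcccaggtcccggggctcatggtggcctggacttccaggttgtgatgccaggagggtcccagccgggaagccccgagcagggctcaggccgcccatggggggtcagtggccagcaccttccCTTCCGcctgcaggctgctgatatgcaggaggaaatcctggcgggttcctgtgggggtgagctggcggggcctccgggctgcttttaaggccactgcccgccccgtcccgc
EMCN, chr4:100518094-100518272, minus strand: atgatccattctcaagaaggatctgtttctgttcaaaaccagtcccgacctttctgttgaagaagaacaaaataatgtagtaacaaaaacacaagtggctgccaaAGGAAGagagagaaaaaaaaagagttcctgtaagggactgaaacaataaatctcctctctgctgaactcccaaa
MMRN1, chr4:89879261-89879510, plus strand: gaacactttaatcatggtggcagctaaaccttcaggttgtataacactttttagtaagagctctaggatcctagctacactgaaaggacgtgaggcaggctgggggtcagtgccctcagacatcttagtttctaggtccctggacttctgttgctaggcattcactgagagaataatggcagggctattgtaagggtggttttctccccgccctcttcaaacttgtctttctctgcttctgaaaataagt
ECSCR, chr5:139462744-139462993, minus strand: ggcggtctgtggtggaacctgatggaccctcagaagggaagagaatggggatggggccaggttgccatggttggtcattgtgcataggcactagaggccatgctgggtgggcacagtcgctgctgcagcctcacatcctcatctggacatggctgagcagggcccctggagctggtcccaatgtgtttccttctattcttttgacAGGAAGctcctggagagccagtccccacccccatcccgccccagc
Promoters of 23 members were in the table, which holds 32 starts for them, and the 250 bases before each start were searched on both strands. The ETS core stood in 19 of the 32 windows, against 40.8% of all 35116 windows of the same length, AGGAAG being in 28.7% and CGGAAG in 16.5%. Of these 19, 2 windows of CAV1 overlap and hold the same sites. The 19 belong to 17 of the 23 members, a count by gene that the share by window cannot be set against. The STAT core TTCNNNGAA stood in none of the 32, against 6.57% of all windows. The window of MMRN1 shown above held neither core. The window before another start of MMRN1, chr4:89894604-89894853, held AGGAAG on the opposite strand. That of PLVAP held 2 copies of AGGAAG that do not overlap. CDH5, ESAM, LYVE1, CD93, PECAM1, APLNR, RAMP2, CLDN5 and PODXL were not in the table. A match describes these letters only and is no evidence of binding.

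By level, the most abundant members in CT were EGFL7, a secreted factor of the vessel wall, with a mean of 799 TPM, ENG with 580.4 TPM and CAV1 with 414 TPM. In CBP300 the first place in order was again EGFL7, at 299 TPM, and ENG followed at 290.3 TPM, levels that the libraries did not separate, since EGFL7 ranged from 288 to 313 and ENG from 284 to 302 TPM. PODXL moved from the 7th place in CT to the 3rd in CBP300, and CDH5 from the 6th to the 11th.

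**Figure D2:**
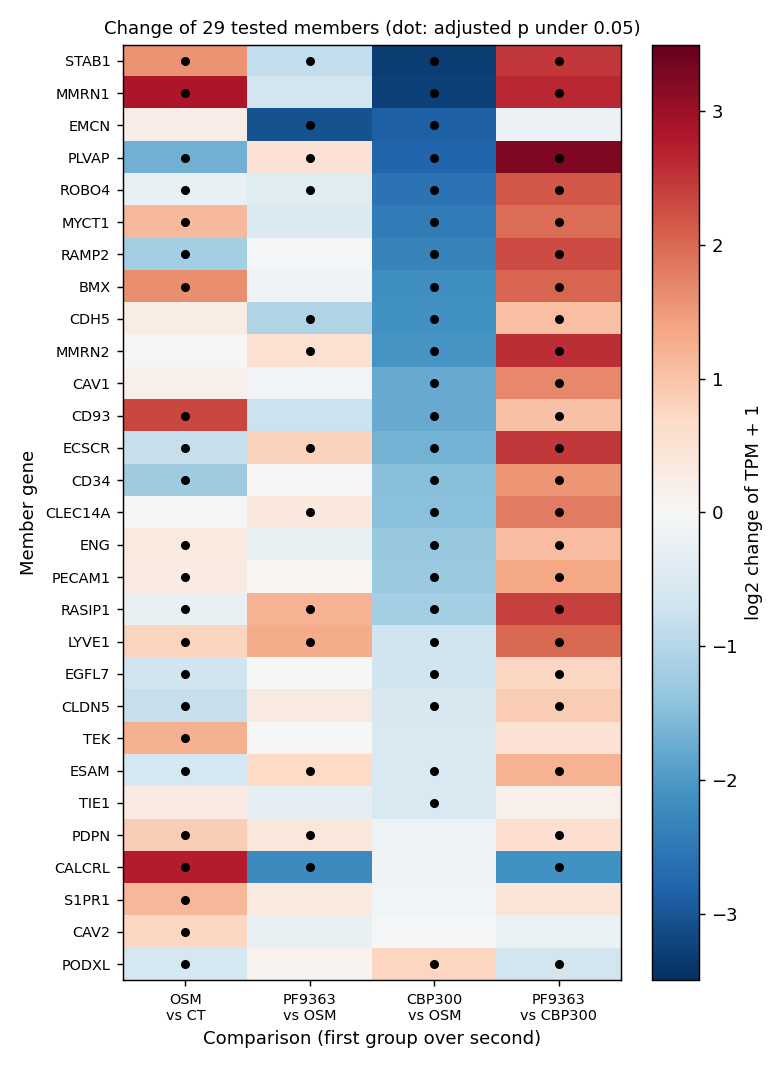
Change of each of the 29 tested members in 4 comparisons, as the log2 change of TPM + 1 (colour, red for higher in the group named first), ordered by the change with CBP300, with a dot where the adjusted p was under 0.05. Most rows are blue with a dot in the column for CBP300 against OSM, where 23 members were lower, and red in the column for PF9363 against CBP300, where 22 were higher.

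Of the junction genes, all 5 members were called lower with CBP300 than with oncostatin M alone, CLDN5 not in every setting. VE-cadherin, encoded by CDH5, is the adhesion molecule of endothelial adherens junctions. CDH5 stood at 114, 219.5 and 198 TPM (CT), 206, 198 and 203 TPM (OSM), 112, 109 and 73.6 TPM (PF9363) and 44.7, 46.2 and 46.6 TPM (CBP300). The CBP300 libraries lay below all others, the PF9363 libraries lay below CT and OSM, with CT replicate 1 just above them, and CT and OSM overlapped. The change was -1.06 ± 0.22 with PF9363 (adjusted p 0.00283) and -2.12 ± 0.22 with CBP300 (adjusted p 0.000106) relative to oncostatin M alone. With oncostatin M it was 0.25 ± 0.22 and not called (adjusted p 0.362). PF9363 against CBP300 was 1.06 ± 0.22 (adjusted p 0.00228).

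PECAM1, or CD31, is the homophilic adhesion molecule of the same contacts. PECAM1 stood at 84.4, 99.8 and 101 TPM (CT), 120.3, 116 and 110.0 TPM (OSM), 133, 122 and 106 TPM (PF9363) and 47.8, 47.5 and 43.4 TPM (CBP300). The CBP300 libraries lay below all others, the CT libraries were below OSM, and PF9363 overlapped OSM. It was lower with CBP300 by -1.30 ± 0.10 (adjusted p 1.79e-05). The oncostatin M call, 0.28 with an adjusted p of 0.0421, lies below the median shift of all tested genes (0.31) and reversed to -0.11 under median-of-ratios scaling and to -0.42 once a trend on GC content and transcript length was removed.

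ESAM, an immunoglobulin-like molecule of tight junctions, stood at 19.8, 24.1 and 24.7 TPM (CT), 13.3, 15.1 and 14.9 TPM (OSM), 23.8, 24.6 and 22.9 TPM (PF9363) and 11.1, 9.57 and 8.58 TPM (CBP300). The OSM libraries lay below CT, the PF9363 libraries lay within the range of CT and above OSM, and the CBP300 libraries lay below all others. The changes were -0.63 ± 0.12 with oncostatin M (adjusted p 0.00252), 0.68 ± 0.12 with PF9363 (adjusted p 0.00073) and -0.53 ± 0.12 with CBP300 (adjusted p 0.00864). PF9363 against CBP300 was 1.21 ± 0.12 (adjusted p 1.25e-05).

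Claudin-5, the tight junction strand protein encoded by CLDN5, was low throughout, with means of 3.37 ± 0.231 (CT), 1.49 ± 0.109 (OSM), 2.18 ± 0.892 (PF9363) and 0.682 ± 0.126 TPM (CBP300) (SD, n = 3). It was lower in OSM than in CT by -0.81 ± 0.17 (adjusted p 0.00391). The further fall with CBP300, -0.57 with an adjusted p of 0.0353, lost its call in 12 of 21 other settings, among them the omission of any single OSM or CBP300 library, median-of-ratios scaling and the replicate block (adjusted p 0.0507 to 0.241). The change was -0.51 to -0.62 without single libraries and -0.27 once the GC and length trend was removed.

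RASIP1, an effector of RAP1 needed for vessel lumens, stood at 75.5, 66.4 and 68.3 TPM (CT), 54.2, 60.6 and 59.1 TPM (OSM), 116, 146 and 144 TPM (PF9363) and 24.03, 25.3 and 25.7 TPM (CBP300). The PF9363 libraries were above all others and the CBP300 libraries below all others. RASIP1 was called lower with oncostatin M (-0.27 ± 0.10, adjusted p 0.0448), a call lost in 13 of 22 other settings. PF9363 raised it by 1.21 ± 0.10 relative to oncostatin M (adjusted p 6.28e-06), and CBP300 lowered it by -1.18 ± 0.10 (adjusted p 2.95e-05), so that the groups with inhibitors differed by 2.39 ± 0.10 (adjusted p 8.51e-08).

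Of 19 tested junction partners, 10 were higher and 3 lower with oncostatin M, 2 higher and 8 lower with PF9363, and 2 higher and 5 lower with CBP300. In percent these were 52.6 and 15.8 with oncostatin M, against 42.1 and 15.2 of all genes, then 10.5 and 42.1 with PF9363, against 11.3 and 35.6, and 10.5 and 26.3 with CBP300, against 13.8 and 13.3, so several lie near the share of all genes. ICAM2, an adhesion molecule of the luminal face, fell from 111 TPM in CT to 63.4 in OSM and 17.3 in CBP300, and stood at 97.8 in PF9363, where it was called higher than in OSM (adjusted p 0.00356 with oncostatin M, 3.33e-05 with CBP300 and 0.0102 with PF9363). CLDN11, a claudin, fell with PF9363 from 82.2 to 20.6 TPM (adjusted p 1.73e-05). PTPRB, the phosphatase that acts on VE-cadherin and TEK, rose with oncostatin M from 6.45 to 17.8 TPM and fell to 6.48 with PF9363 and 5.05 with CBP300 (adjusted p 0.00484, 0.00465 and 0.00436).

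The sialomucins and the diaphragm protein did not move as a group, since PLVAP, EMCN and CD34 fell with CBP300 and PODXL rose. PLVAP makes the diaphragms of caveolae and fenestrae. PLVAP stood at 84.8, 101 and 91.1 TPM (CT), 26.8, 30.1 and 27.6 TPM (OSM), 39.7, 45.8 and 35.2 TPM (PF9363) and 3.32, 3.06 and 3.36 TPM (CBP300). No group overlapped another, with CT highest, then PF9363, OSM and CBP300. The level fell 3.27-fold with oncostatin M, -1.67 ± 0.11 on the log2 scale (adjusted p 6.26e-06), and a further 8.68-fold with CBP300, -2.78 ± 0.11 on that scale (adjusted p 1.81e-07). With PF9363 it was higher than with oncostatin M alone by 0.49 ± 0.11 (adjusted p 0.00386), and PF9363 exceeded CBP300 12.4-fold (adjusted p 3.41e-08).

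EMCN, or endomucin, is a sialomucin of venous and capillary endothelium. EMCN stood at 8.45, 10.6 and 10.7 TPM (CT), 11.8, 12.3 and 11.4 TPM (OSM), 0.675, 0.513 and 0.441 TPM (PF9363) and 0.925, 0.759 and 0.639 TPM (CBP300). The PF9363 and CBP300 libraries overlapped each other and lay under 1 TPM, whereas no CT or OSM library was under 8 TPM. The change relative to OSM was -3.06 ± 0.12 with PF9363 (adjusted p 7.29e-08) and -2.86 ± 0.12 with CBP300 (adjusted p 3.22e-07). Recovered reads were 17, 13 and 12 in PF9363 and 27, 76 and 12 in CBP300. PF9363 against CBP300 was -0.20 with a 95% interval of -0.47 to 0.07 (adjusted p 0.179), and became 0.70 (adjusted p 0.00863) once the GC and length trend was removed.

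CD34 is a sialomucin of small vessels and progenitors. CD34 stood at 32.6, 41.01 and 39.8 TPM (CT), 15.5, 15.6 and 14.5 TPM (OSM), 15.96, 16.97 and 14.4 TPM (PF9363) and 4.44, 4.98 and 4.93 TPM (CBP300). OSM and PF9363 libraries overlapped, CT lay above them and CBP300 below. Oncostatin M lowered it 2.49-fold (-1.25 ± 0.11, adjusted p 3.76e-05) and CBP300 lowered it a further 3.18-fold (-1.49 ± 0.11, adjusted p 9.53e-06).

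Podocalyxin, the sialomucin encoded by PODXL, went the other way with CBP300. Its means were 159 ± 32.2 (CT), 103 ± 7.12 (OSM), 113 ± 28.9 (PF9363) and 174 ± 8.31 TPM (CBP300) (SD, n = 3). It was lower in OSM than in CT by -0.61 ± 0.19 (adjusted p 0.0204), a call lost without CT replicate 2 or 3 or OSM replicate 2 or 3 (adjusted p 0.0507 to 0.0657), and higher in CBP300 than in OSM by 0.76 ± 0.19 (adjusted p 0.0155). That rise was no longer called without OSM replicate 2, OSM replicate 3 or CBP300 replicate 2, and the lower level in PF9363 than in CBP300 was no longer called under median-of-ratios scaling (-0.18, adjusted p 0.19) or once the GC and length trend was removed.

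**Figure D3:**
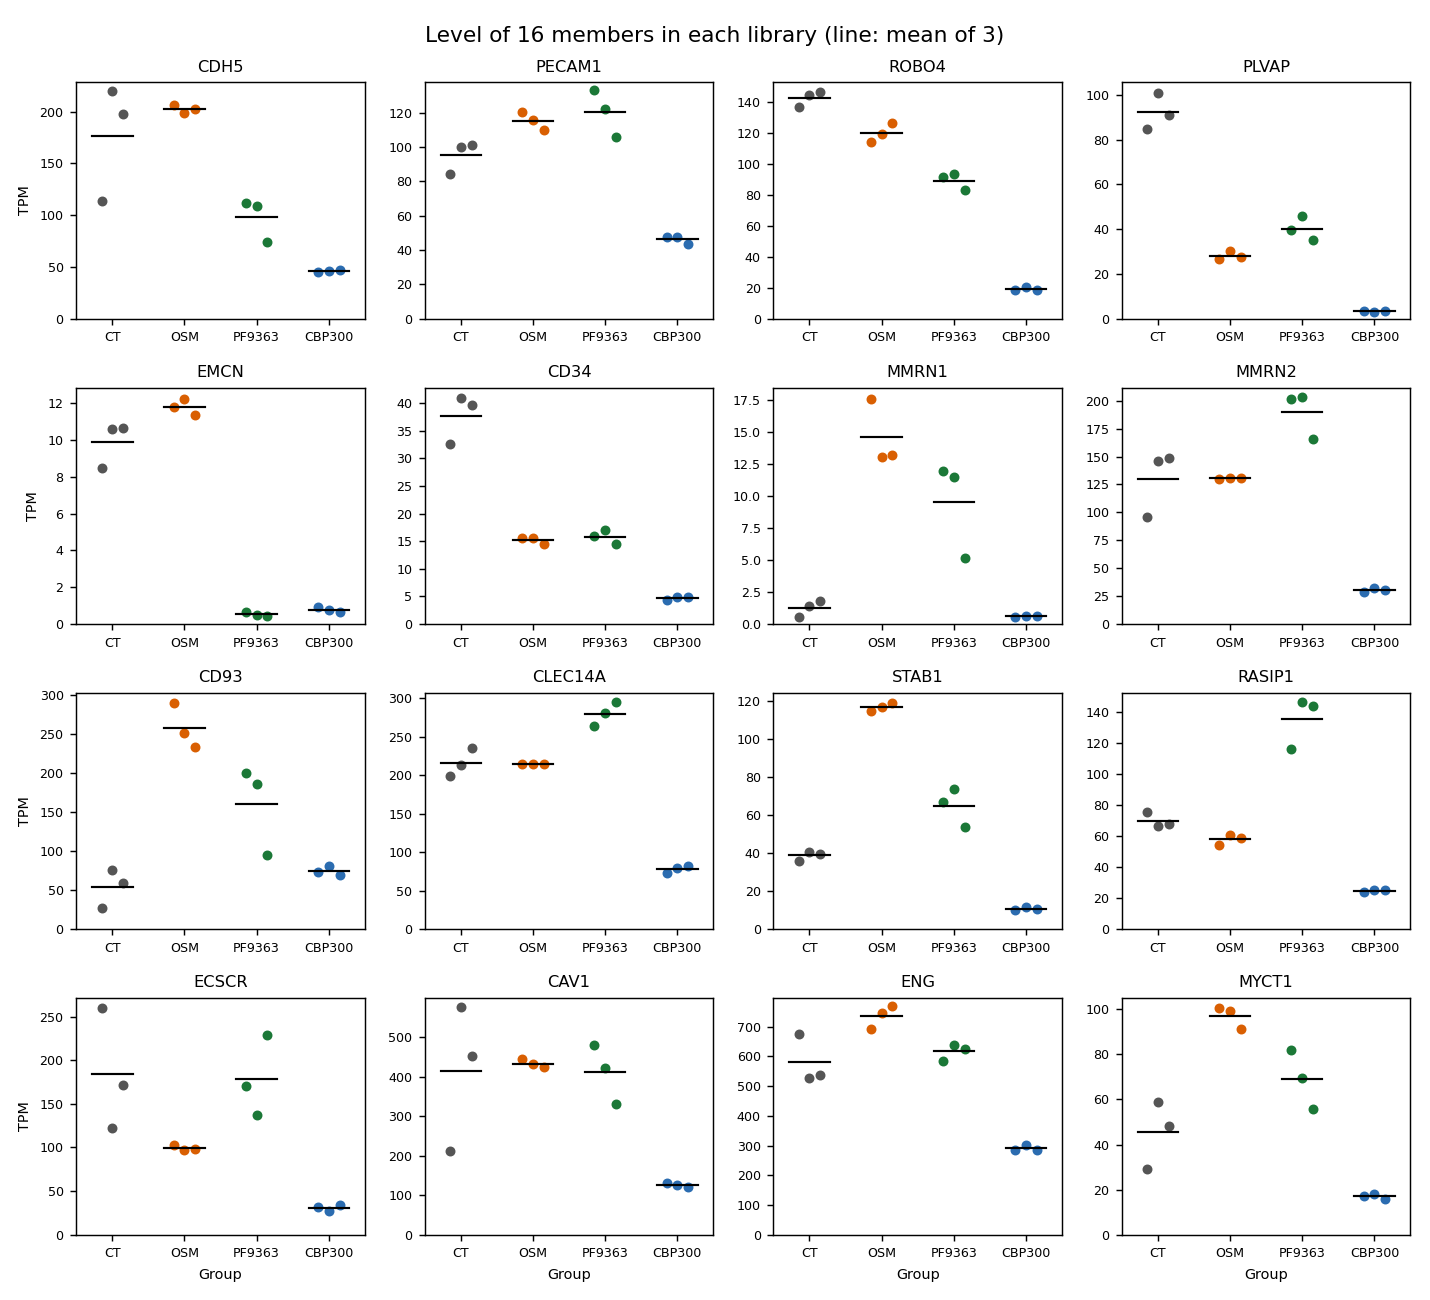
Level in TPM of 16 members in each of the 12 libraries, with the mean of each group as a line and every axis starting at 0. The members drawn are all among those called lower with CBP300, and their CBP300 libraries are below all OSM libraries. PODXL, higher in CBP300, and CALCRL, S1PR1 and CAV2, whose CBP300 and OSM libraries overlap, are not drawn here. The PF9363 libraries are all above OSM for PLVAP, MMRN2, CLEC14A, RASIP1 and ECSCR and all below it for CDH5, ROBO4, EMCN, MMRN1, CD93, STAB1, ENG and MYCT1.

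All 4 members among the lectins and multimerins were lower with CBP300. CD93 and CLEC14A are related C-type lectin receptors of endothelium, and MMRN2 is a matrix ligand of both. CD93 stood at 27.8, 75.9 and 59.5 TPM (CT), 290.0, 252 and 234 TPM (OSM), 201, 186 and 95.2 TPM (PF9363) and 73.9, 81.7 and 69.7 TPM (CBP300). OSM lay above CT, PF9363 replicate 3 was far below the other PF9363 libraries, and the CBP300 libraries lay below OSM and overlapped CT. Oncostatin M raised it 4.75-fold (2.34 ± 0.35, adjusted p 0.00106) and CBP300 lowered it 3.44-fold (-1.77 ± 0.35, adjusted p 0.00474). With PF9363 the change was -0.75 ± 0.35 and not called (adjusted p 0.103), although no PF9363 library reached OSM.

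CLEC14A stood at 199, 214 and 236 TPM (CT), 215, 215 and 215 TPM (OSM), 264, 281 and 296 TPM (PF9363) and 72.8, 79.4 and 82.01 TPM (CBP300). CT and OSM overlapped, the PF9363 libraries were above all others and the CBP300 libraries below all others. The change with PF9363 was 0.38 ± 0.08 (adjusted p 0.00354), and with CBP300 -1.45 ± 0.08 (adjusted p 2.22e-06).

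MMRN2 stood at 95.7, 146 and 149 TPM (CT), 130.1, 131 and 131 TPM (OSM), 201, 203 and 165 TPM (PF9363) and 29.1, 32.3 and 30.03 TPM (CBP300). As for CLEC14A, the PF9363 libraries were above all others, the CBP300 libraries below all others, and CT and OSM overlapped. It rose by 0.53 ± 0.15 with PF9363 (adjusted p 0.0162, but 0.056 without PF9363 replicate 2) and fell 4.29-fold with CBP300 (-2.07 ± 0.15, adjusted p 1.09e-05). Its exons overlap those of ADIRF-AS1 on the same strand, so that reads could have been split. With oncostatin M it gave 0.04 and no call, and -0.36 and -0.25 with calls under median-of-ratios scaling and after removal of the GC and length trend.

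MMRN1 is the related protein of lymphatic endothelium and platelets. MMRN1 stood at 0.577, 1.42 and 1.77 TPM (CT), 17.6, 13.1 and 13.2 TPM (OSM), 11.96, 11.5 and 5.17 TPM (PF9363) and 0.547, 0.647 and 0.599 TPM (CBP300). OSM lay far above CT, PF9363 lay below OSM but above CT, and CBP300 overlapped CT at the bottom. Oncostatin M raised the level 11.7-fold (2.82 ± 0.29, adjusted p 0.000121) and CBP300 lowered it 24.5-fold (-3.28 ± 0.29, adjusted p 3.31e-05). With PF9363 the change was -0.63 ± 0.29 and not called (adjusted p 0.0977).

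STAB1 and PDPN, genes of sinusoidal or lymphatic endothelium, were higher with oncostatin M. STAB1, or stabilin-1, is a scavenger receptor of sinusoidal and lymphatic endothelium. STAB1 stood at 36.1, 40.8 and 39.6 TPM (CT), 115, 117 and 119 TPM (OSM), 67.1, 73.7 and 53.98 TPM (PF9363) and 9.96, 11.5 and 10.8 TPM (CBP300). No group overlapped another, and OSM was the highest, then PF9363, CT and CBP300. Oncostatin M raised it 3.01-fold (1.57 ± 0.11, adjusted p 1.26e-05), PF9363 lowered it 1.80-fold (-0.85 ± 0.11, adjusted p 0.000145) and CBP300 lowered it 10.9-fold (-3.33 ± 0.11, adjusted p 5.46e-08). Exons of NT5DC2, on the opposite strand, overlap it, and the strand setting of the counting is not given in the sources used here, so the split of these reads is uncertain.

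PDPN, or podoplanin, a mucin-like marker of lymphatic endothelium, had means of 80.2 ± 4.85 (CT), 145 ± 4.53 (OSM), 192 ± 9.27 (PF9363) and 128 ± 0.954 TPM (CBP300) (SD, n = 3). It was higher with oncostatin M by 0.85 ± 0.07 (adjusted p 3.11e-05) and higher again with PF9363 by 0.40 ± 0.07 (adjusted p 0.001). LYVE1, the hyaluronan receptor of lymphatics, rested on few reads, namely 3, 3 and 4 (CT), 22, 18 and 13 (OSM), 73, 80 and 52 (PF9363) and 2, 9 and 5 (CBP300). The PF9363 libraries were the highest and the only ones above 1.1 TPM. Since LYVE1 was tested only because of that level, no p is given for it. PROX1, the factor that defines lymphatic endothelium, was under 0.1 TPM in every library.

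Of 5 tested lectin-family and slit/robo partners, 3 were higher with oncostatin M, 3 were higher and 1 lower with PF9363, and 2 were lower with CBP300, a list too short to read against the shares of all genes. CLEC2B, a C-type lectin, rose from 6.96 TPM in CT to 16.8 in OSM (adjusted p 1.7e-05) and 25.9 in PF9363 (adjusted p against OSM 0.000323), and was 6.41 TPM in CBP300 (adjusted p against OSM 7.8e-06). THBD, thrombomodulin, was 45.4 TPM in OSM, 141 in PF9363 (adjusted p 0.000246) and 46.5 in CBP300.

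The receptor pair CALCRL and RAMP2 moved apart. CALCRL encodes a membrane receptor that binds adrenomedullin when RAMP2 is at its side. CALCRL stood at 2.37, 8.71 and 6.16 TPM (CT), 47.99, 37.00 and 36.5 TPM (OSM), 11.9, 9.01 and 4.34 TPM (PF9363) and 37.2, 38.6 and 35.4 TPM (CBP300). OSM and CBP300 overlapped at the top, and CT and PF9363 overlapped at the bottom. Oncostatin M raised it 7.05-fold (2.74 ± 0.38, adjusted p 0.000734), PF9363 lowered it 4.82-fold (-2.22 ± 0.38, adjusted p 0.000753), and CBP300 gave -0.11 ± 0.38 and no call (adjusted p 0.838, 95% interval -0.96 to 0.73). After removal of the GC and length trend the CBP300 change became -0.75 (adjusted p 0.00086), CALCRL having a GC content of 33.9%.

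The partner RAMP2 stood at 30.8, 19.7 and 22.8 TPM (CT), 7.29, 12.2 and 10.9 TPM (OSM), 7.92, 8.60 and 12.4 TPM (PF9363) and 0.636, 2.50 and 0.741 TPM (CBP300). The OSM and PF9363 libraries overlapped below CT, and the CBP300 libraries were lowest, on 4, 54 and 3 recovered reads. It fell 2.41-fold with oncostatin M (-1.20 ± 0.31, adjusted p 0.00832) and a further 7.84-fold with CBP300 (-2.34 ± 0.31, adjusted p 0.000451). Without CBP300 replicate 2 the CBP300 mean was 0.688 TPM and that fold 14.7. PF9363 lowered CALCRL and gave no call for RAMP2 (-0.06, adjusted p 0.893), and CBP300 lowered RAMP2 and gave no call for CALCRL. PF9363 against CBP300 was -2.11 ± 0.38 for CALCRL (adjusted p 0.000827) and 2.28 ± 0.31 for RAMP2 (adjusted p 0.000121).

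Among the ligand and partner genes, ADM, adrenomedullin itself, rose with oncostatin M from 42.7 to 119 TPM (adjusted p 1.56e-05) and was 77.2 TPM with PF9363, lower than in OSM (adjusted p 0.000994). S1PR1, the receptor for sphingosine-1-phosphate that tightens junctions, stood at 13.7, 41.5 and 34.6 TPM (CT), 67.3, 61.96 and 56.6 TPM (OSM), 94.5, 88.2 and 59.8 TPM (PF9363) and 58.4, 58.3 and 56.8 TPM (CBP300). OSM lay above CT, and CBP300 and PF9363 each overlapped OSM. Oncostatin M raised it 2.07-fold (1.16 ± 0.33, adjusted p 0.0126, but 0.0566 when only the 6 libraries compared were fitted), and CBP300 gave -0.09 and no call (adjusted p 0.847). SPNS2, the exporter of that lipid, fell with CBP300 from 3.77 to 0.413 TPM (adjusted p 1.49e-05), and SPHK1, a kinase that makes it, fell from 39.5 to 21.2 TPM with CBP300 and rose to 83.4 with PF9363 (adjusted p 0.0017 and 0.000156). Of 13 tested adrenomedullin, apelin and sphingosine-1-phosphate partners, 4 were higher and 2 lower with oncostatin M (30.8% and 15.4%, against 42.1% and 15.2% of all genes), 3 were higher and 2 lower with PF9363 (23.1% and 15.4%, against 11.3% and 35.6%), and 4 were lower with CBP300 (30.8%, against 13.3%).

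**Figure D4:**
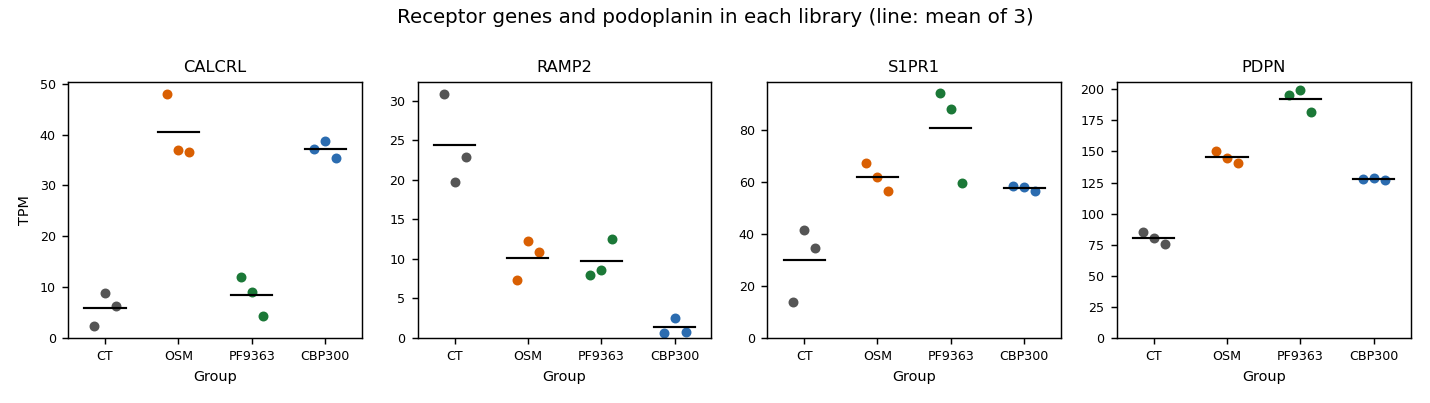
Level in TPM of CALCRL, RAMP2, S1PR1 and PDPN in each of the 12 libraries, with group means as lines and axes starting at 0. CALCRL is high in OSM and CBP300 and low in CT and PF9363, while RAMP2 is highest in CT and lowest in CBP300.

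Among the angiopoietin and guidance receptors, ROBO4 was lower with CBP300, and the calls for TEK and TIE1 changed with the setting. TEK, also known as TIE2, is the angiopoietin receptor. TEK stood at 11.7, 37.8 and 28.04 TPM (CT), 61.5, 56.6 and 52.9 TPM (OSM), 73.2, 66.1 and 35.9 TPM (PF9363) and 39.2, 41.02 and 36.04 TPM (CBP300). OSM lay above CT, PF9363 and OSM overlapped, and all CBP300 libraries lay below all OSM libraries. Oncostatin M raised it 2.20-fold (1.25 ± 0.36, adjusted p 0.0143), a change that lost its call (0.49, adjusted p 0.0503) once the GC and length trend was removed. With CBP300 it gave -0.54 ± 0.36 and no call (adjusted p 0.274), but it was called lower once that trend was removed (-0.84, adjusted p 0.00669) and, at the same -0.54, when only the 6 libraries compared were fitted (adjusted p 0.000684) or CT replicate 1 and PF9363 replicate 3 were left out (adjusted p 0.00223). Its partner TIE1 had means of 152 ± 31.3 (CT), 184 ± 7.43 (OSM), 145 ± 16.9 (PF9363) and 128 ± 5.56 TPM (CBP300) (SD, n = 3), and the change with CBP300 was -0.52 ± 0.14 (adjusted p 0.0217). That call was lost without OSM replicate 2 or 3 or without any single CBP300 library (-0.49 to -0.54, adjusted p 0.0552 to 0.076). The angiopoietin ANGPT2, an antagonist ligand of TEK in most settings, rose with PF9363 from 0.533 to 3.86 TPM (adjusted p 1.17e-05).

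ROBO4 is the endothelial member of the roundabout family. ROBO4 stood at 137, 145 and 146 TPM (CT), 114, 119.7 and 126 TPM (OSM), 91.4, 93.4 and 83.1 TPM (PF9363) and 18.4, 20.4 and 18.5 TPM (CBP300). No group overlapped another, and the order was CT, OSM, PF9363 and CBP300. CBP300 lowered it 6.28-fold (-2.59 ± 0.08, adjusted p 4.33e-08). The smaller fall with PF9363 (-0.42, adjusted p 0.00137) was lost under median-of-ratios scaling (-0.06) and after removal of the GC and length trend (-0.06).

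ECSCR, a surface protein that affects endothelial movement and survival, stood at 259, 123 and 172 TPM (CT), 103, 97.4 and 98.8 TPM (OSM), 170.4, 137 and 229 TPM (PF9363) and 31.3, 26.8 and 34.4 TPM (CBP300). OSM lay below CT and PF9363, which overlapped each other, and CBP300 lay below all. The changes were -0.82 ± 0.25 with oncostatin M (adjusted p 0.0177), 0.80 ± 0.25 with PF9363 (adjusted p 0.022) and -1.67 ± 0.25 with CBP300 (adjusted p 0.000978). The first was not called without CT replicate 1 (-0.54, adjusted p 0.0521) or with the GC and length trend removed (-0.55, adjusted p 0.058). The second was not called without PF9363 replicate 3 (0.61, adjusted p 0.0841) or without OSM replicate 1, 2 or 3 (0.79 to 0.83, adjusted p 0.0501 to 0.0583).

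ENG, or endoglin, is the co-receptor for BMP9 and BMP10. ENG stood at 675, 528 and 539 TPM (CT), 693, 745 and 771 TPM (OSM), 586, 639.8 and 626 TPM (PF9363) and 284, 302 and 285 TPM (CBP300). The CBP300 libraries were lowest, OSM was highest, and CT overlapped PF9363. CBP300 lowered it 2.54-fold (-1.34 ± 0.10, adjusted p 9.2e-06). The oncostatin M call, 0.35 with an adjusted p of 0.0113, was near the shift of all genes, turned to -0.04 under median-of-ratios scaling, and was lost when only the 6 libraries compared were fitted and with voom on recovered reads. ACVRL1, the kinase that signals with endoglin, had means of 134 (CT), 166 (OSM), 242 (PF9363) and 43.5 TPM (CBP300) (adjusted p against OSM 0.000209 and 1.81e-07). Of the 14 endoglin and BMP9/10 partners, 12 were higher with oncostatin M (85.7%, against 42.1% of all genes), and 5 were higher and 3 lower with PF9363 (35.7% and 21.4%, against 11.3% and 35.6%). With CBP300 2 were higher and 2 lower, 14.3% each way, close to the 13.8% and 13.3% of all genes. SMAD1, which carries the signal of these receptors, rose with oncostatin M from 4.52 to 21.4 TPM (adjusted p 0.00257). ID3, a target of this pathway, fell from 717 to 331 TPM with CBP300 (adjusted p 1.79e-05).

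MYCT1 and BMX were higher with oncostatin M and lower with CBP300. MYCT1, a membrane protein enriched in endothelium, stood at 29.3, 58.9 and 48.02 TPM (CT), 101, 99.1 and 91.2 TPM (OSM), 81.9, 69.6 and 55.8 TPM (PF9363) and 17.01, 17.9 and 15.99 TPM (CBP300). OSM lay above all other libraries, PF9363 overlapped CT in part and CBP300 lay below all. Oncostatin M raised it 2.14-fold (1.13 ± 0.22, adjusted p 0.0028) and CBP300 lowered it 5.72-fold (-2.45 ± 0.22, adjusted p 3.45e-05). BMX, a cytosolic kinase of arterial endothelium, rose with oncostatin M from 4, 8 and 14 recovered reads (CT) to 56, 48 and 52 (OSM), with 45, 45 and 47 (PF9363) and 1, 2 and 0 (CBP300) in the other groups. It was called in both directions (adjusted p 3.51e-05 with oncostatin M and 4.38e-06 with CBP300). EGFL7 had means of 799 ± 196 (CT), 483 ± 37.8 (OSM), 502 ± 134 (PF9363) and 299 ± 13.2 TPM (CBP300) (SD, n = 3). Its fall with oncostatin M (-0.70, adjusted p 0.0111) and its fall with CBP300 (-0.69, adjusted p 0.0246) both lost their call after removal of the GC and length trend, and the second also under median-of-ratios scaling and without OSM replicate 2 or 3 or any single CBP300 library (adjusted p up to 0.0967).

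Of the caveolins, CAV1 fell with CBP300 and CAV2 was not called in that comparison. CAV1, the coat protein of caveolae, stood at 212, 576 and 453 TPM (CT), 445, 431 and 424 TPM (OSM), 480.2, 423 and 331 TPM (PF9363) and 131, 127 and 121 TPM (CBP300). The CBP300 libraries lay below all others and the other groups overlapped. CBP300 lowered it 3.43-fold (-1.77 ± 0.29, adjusted p 0.0017). CAV2, its partner, gave -0.04 with CBP300 and no call (adjusted p 0.929, 95% interval -0.63 to 0.56), with means of 46.3 ± 3.28 TPM in OSM and 45.2 ± 4.65 in CBP300 (SD, n = 3), but was called lower (-0.38, adjusted p 0.0143) after removal of the GC and length trend. With oncostatin M CAV2 was called higher, from a mean of 28.7 TPM in CT (0.73 ± 0.27, adjusted p 0.0381), a call lost in 13 of 22 other settings. Of 7 tested caveola partners, 4 were lower with CBP300 (57.1%, against 13.3% of all genes). With PF9363 2 were higher and 2 lower (28.6% each way, against 11.3% and 35.6%). With oncostatin M 1 was higher and 3 lower (14.3% and 42.9%, against 42.1% and 15.2%). CAVIN3, a coat protein, had means of 164 (CT), 49.8 (OSM), 149 (PF9363) and 24.3 TPM (CBP300) (adjusted p against OSM 0.000134 and 0.00499), the same order of group means as PLVAP.

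The 3 members that were not tested were low. APLNR, the apelin receptor, had 1 read in CT replicate 2 and was listed at 0 in the other 11 libraries. NOSTRIN, which binds endothelial nitric oxide synthase, lay between 0 and 0.151 TPM. AQP1, the water channel, lay between 0.206 and 1.01 TPM, with its lowest libraries in CBP300.

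Among markers of other cell types, the epithelial and leukocyte sums were higher with PF9363, and the fibroblast and mural sum overlapped that of OSM. In PF9363, KRT18 made up most of the epithelial sum and CD14 most of the leukocyte sum. KRT8, KRT18 and the mural marker MCAM are also made by cultured endothelial cells. The summed level of 9 epithelial markers, of which 4 reached 1 TPM in 3 libraries or more, was 2690 to 3875 TPM in PF9363, against 794.9 to 1082 in CT, 769.3 to 837.2 in OSM and 527.2 to 536.6 in CBP300. From OSM to PF9363, the mean of KRT18 went from 788.6 to 3107 TPM, that of KRT8 from 23.23 to 51.11, that of KRT14 from 0 to 3.134 and that of KRT19 from 2.132 to 0.8463. EPCAM went from 0.4981 to 0.2144 TPM and CDH1 from 0 to 0.05514, and GRHL2 was listed at 0 throughout. The 15 leukocyte markers, of which 2 reached 1 TPM in 3 libraries or more, had summed levels of 50.51 to 66.03 TPM in PF9363, against 15.1 to 18.13 in OSM, 16.71 to 18.37 in CBP300 and 5.429 to 8.059 in CT, with CD14 at means of 14.68 in OSM and 50.27 in PF9363. The 13 fibroblast and mural markers, 8 of them at 1 TPM in 3 libraries or more, summed to 177.8 to 237.3 TPM in PF9363. Their sums were 225.4 to 236.3 in OSM, 218.6 to 230.1 in CBP300 and 230.2 to 352.9 in CT. The part of the marker shifts in the members' values was not tested.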

How the data were processed

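The authors deposited 1 table of 60623 genes with 12 columns of TPM, 1 per library. The submitters' processing notes name RSEM 1.3.3, Bowtie2 and Trimmomatic 0.40, with GRCh38 as the build; the role of each, the annotation release and the strand setting are not given in the sources used here. The PF9363 columns sum to 999570 to 999822 and the others to 1000000. Here, log2(TPM + 1) was fitted with limma 3.58.1 (R 4.3.3), 1 mean per group over all 12 libraries, with a variance trend, for the 16848 genes that reached 1 TPM in 3 libraries or more. Benjamini-Hochberg adjustment ran over these genes, separately for each comparison. Whole reads were recovered for 16843 of those genes (99.97%, tolerance 0.001 reads) and used for depth and for an alternative fit. GENCODE 29 gave GC content and transcript length. The steps were tested on simulated data. Tables and plots used pandas 2.3.3, numpy 2.4.6 and matplotlib 3.10.9 in Python 3.11.15. Called members whose log2 change was 1 or more in size, with 5 TPM or more in the higher group, are printed by library; up to 4 called genes per partner list are named. The members and lists were chosen with earlier results of these data known. ADM, ID3, SOX18, FLT1, TAL1 and ERG fall outside this rule or its limit and were named after their values were seen. Alternatives were other pseudocounts and filters, median-of-ratios scaling, removal of a GC and length trend, voom on recovered reads, a replicate block, a fit of 6 libraries and omission of each library. Printed reads may include PCR copies.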

Additional observations from a re-analysis of the deposited data

How the results depend on the processing

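Calls for the members held in most settings, but counts in the PF9363 comparisons moved. Relative to oncostatin M alone, 13 members were higher with PF9363 under median-of-ratios scaling and 13 with the GC and length trend removed, against 8. All genes called higher rose too, from 1901 of 16848 to 3711 of 16848 and 4631 of 16729 in those settings. When only the 6 libraries compared were fitted, 8 members were lower, against 5, beside 6021 of all genes, against 5993. Without both CT replicate 1 and PF9363 replicate 3, an alternative chosen after seeing the data, 9 members were lower, beside 7207 of all genes. Leaving out 1 library at a time gave 5 to 9 lower members in PF9363 against OSM. There were 9 without CT replicate 1 and 8 without CT replicate 2, which enter through the shared estimate of spread, beside 7263 and 6180 of all genes. For CBP300 against OSM, leaving out 1 library gave 0 to 1 higher members, beside 1090 to 4692 of all genes. In PF9363 against CBP300, 1 member was lower under median-of-ratios scaling and 1 with the trend removed, against 2. All genes lower there were 4705 and 4665, against 7592. In single genes the direction of OSM against CT reversed for PECAM1 (-0.11 under median-of-ratios scaling, -0.42 with the trend removed), EMCN (-0.88 with the trend removed), MMRN2 (-0.36 under scaling, -0.25 with the trend removed, -0.17 without CT replicate 1 and PF9363 replicate 3, and -0.17 to 0.15 over the single omissions), ENG (-0.044 under scaling) and CAV2 (-0.057 with the trend removed). PF9363 against CBP300 reversed for EMCN (0.70) and CAV2 (0.45) with the trend removed. The cause was not tested; libraries differed in their slope of log2 level on GC content, from 0.222 to 0.598 per 10 percentage points in CT and from -0.348 to -0.288 in CBP300. Of 84 member calls, 73 were kept with the trend removed, 77 under median-of-ratios scaling, 81 with voom on recovered reads and 80 with a replicate block. Same-numbered libraries of different groups correlated between -0.477 and 0.235 in their deviations from the group means. Libraries with different numbers were not compared, so these values cannot decide whether the replicate numbers pair the libraries. With the replicate block 22 members were lower with CBP300, beside 1948 of all 16848 genes. In that setting 11 were higher and 9 lower with oncostatin M, beside 6630 and 2403 of all genes. Under median-of-ratios scaling 10 were higher and 12 lower with oncostatin M, beside 5031 and 4696 of all genes. Kept in every setting in which they were tested were 19 of the 23 members lower with CBP300 and 21 of the 22 higher in PF9363 against CBP300. With oncostatin M 7 of 13 higher and 5 of 10 lower were kept. BMX, CLDN5 and LYVE1 were not tested with a filter at 5 TPM, where 74 of the 84 calls remained, yet count here as kept where no other setting changed them. LYVE1, which passed the filter only through PF9363, is among the 21 and in the 84 calls. BMX, LYVE1, EMCN, RAMP2, CLDN5 and MMRN1 rest on few reads in some libraries.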

Other observations

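Endothelial genes outside the set followed CBP300 in part. Of 38 tested endothelial identity genes that are no members, 17 were lower and 5 higher with CBP300 relative to oncostatin M alone, with a median change of -0.52 (44.7% and 13.2%, against 13.3% and 13.8% of all genes, whose median was 0.11), and 18 were higher and 3 lower in PF9363 against CBP300 (47.4% and 7.89%, against 14.5% and 45.1%). VWF, the adhesive protein stored in Weibel-Palade bodies, fell from 12.9 to 0.826 TPM with CBP300 (limma adjusted p 7.47e-07). GIMAP4, a GTPase, rose with oncostatin M from 5.13 to 41.6 TPM and fell to 5.05 with CBP300 (adjusted p 3.15e-06 and 2.89e-06). SOX18, a factor of endothelial identity, fell from 33.9 to 7.75 TPM with CBP300 (adjusted p 3.68e-05), while the ETS factor ERG went from 88.8 to 59.1 TPM and was not called (adjusted p 0.0563).

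With oncostatin M 22 genes of the same list were higher and 9 lower, 57.9% and 23.7% of those tested, against 42.1% and 15.2% of all genes, with a median of 0.57, against 0.31. With PF9363 11 were higher and 10 lower (28.9% and 26.3%, against 11.3% and 35.6%). FLT1, a VEGF receptor, rose from 1.98 TPM in CT to 11.3 in OSM (adjusted p 6.03e-05) and was 31.4 in PF9363 and 21.95 in CBP300, higher than in OSM in both (adjusted p 0.000195 and 0.00646). TAL1, a haematopoietic and endothelial transcription factor, fell with PF9363 from 46.9 to 11.8 TPM (adjusted p 5.93e-06). NOS3, endothelial nitric oxide synthase, rose with PF9363 from 8.57 to 34.4 TPM and fell to 3.44 TPM with CBP300 (adjusted p 5.8e-06 and 0.00074).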
